A study of Mus musculus with 12 samples.

Results

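The solute carriers are membrane proteins that move amino acids, sugars, ions, nucleotides and other small molecules across the plasma membrane and the membranes of organelles, and their mouse genes carry symbols that begin with Slc and a family number. The deposited table of RNA levels held 330 rows with such a symbol among 23427 rows. A value in all 4 libraries was given for 176 of them, and 174 were taken after 2 were left out by name. By the substrate known for each family or gene, 23 of the 174 were placed in an amino acid class, 6 in a class for glucose and related sugars, 32 in the Slc25 class of mitochondrial carriers, 47 in an ion class, 2 in a peptide class and 64 in a class of other substrates. The class of other substrates also holds Slc9a3r1, Slc4a1ap and Slc7a6os, which are named after a carrier and are not carriers themselves. Membership and class did not use the measured levels beyond the demand for 4 values.

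Carriers of the plasma membrane set which fuels and building blocks reach a cell, and many work as pairs of paralogues that differ in affinity, in regulation or in the tissue that uses them. In heart muscle the insulin-responsive glucose carrier Slc2a4 and the mitochondrial ADP/ATP carrier Slc25a4 are the well known forms, while Slc2a1, Slc2a3 and Slc25a5 prevail in many growing cells. The Slc25 proteins link the mitochondrial matrix with the cytosol by moving nucleotides, phosphate, metabolites and cofactors across the inner membrane. Several amino acid carriers are heterodimers of a heavy chain from the Slc3 family and a light chain from the Slc7 family.

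The RNA came from cells labelled as cardiomyocytes that had been differentiated in culture from CM7/1 mouse embryonic stem cells. The stem cells carried a doxycycline-inducible Hey1 or Hey2 gene, both encoding repressors downstream of Notch. The 4 groups were the Hey1 line without induction, the Hey1 line after 1000 ng/ml doxycycline for 48 h, the Hey2 line without induction and the Hey2 line after the same treatment. The labels do not say whether a line is a single clone or whether cells without the transgene received doxycycline. Each group had 1 library, so no difference below has a replicate check, no p-value is given, and line, culture and library cannot be told apart. Values for the 4 libraries are given in the order uninduced Hey1 line, induced Hey1 line, uninduced Hey2 line and induced Hey2 line.

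The level of Hey1 was 0.735, 8.59, 1.18 and 0.481 RPKM (reads per kilobase of gene, scaled to depth), so it was high in the library labelled as induced for Hey1. The level of Hey2 was 0.694 and 0.895 RPKM in the Hey1 line, not listed in the uninduced Hey2 line and 6.59 RPKM in the induced Hey2 line. The libraries labelled as cardiomyocytes differed in cell type markers before any carrier was considered. The 8 cardiomyocyte markers summed to 16026 and 16674 RPKM in the Hey1 line and to 989 and 1038 RPKM in the Hey2 line. All 8 were listed in every library, which needs few reads, so it does not bear out the label for the Hey2 line, where the sum was far lower. The 6 measured pluripotency markers summed to 29.1, 22.1, 262 and 268 RPKM, and the 4 epithelial markers to 25.8, 20.8, 278 and 360 RPKM. The 4 proliferation markers summed to 16.7, 12.3, 160 and 162 RPKM. The 4 smooth muscle markers summed to 311, 336, 138 and 171 RPKM, but 2 were higher and 2 lower in the Hey2 line, without and with induction. Acta2 stood at 217, 253, 45.6 and 49.5 RPKM, while Tagln ran the other way at 71.1, 60.7, 82.5 and 111 RPKM. The listed visceral endoderm markers summed to 66.5, 48.4, 9.97 and 10.4 RPKM. Among them Afp stood at 58.5, 42.0, 1.42 and 0.970 RPKM, and Cubn ran the other way at 0.346, 0.235, 5.21 and 5.92 RPKM. The part of these cell type differences in any carrier's difference between the lines was not tested, and in such bulk samples fewer cells of a type and less RNA per cell cannot be told apart. Whole read numbers recovered from the values gave 48773, 46648, 28945 and 54033 reads in the 174 carrier genes, with a median of 80.5, 80, 75 and 134.5 reads per carrier gene.

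Of the 330 rows, 78 had no value in any library and 76 had a value in some libraries. Among the 76, 33 were listed in both libraries of the Hey2 line and in neither of the Hey1 line, and 1 showed the reverse. A further 23 were listed only in the induced Hey2-line library, which had the greatest depth, 4 only in the uninduced one, and 15 in other combinations. A missing value stands for fewer reads than the listing floor of about 10 reads in the Hey1 line and about 5 in the Hey2 line, so this asymmetry runs with the lower floor as well as with the line. It is also not particular to carriers. Of all 23427 rows, 12311, 12198, 14177 and 15095 were listed in the 4 libraries. The listing patterns were not counted over all rows, so no excess in carriers is shown. Among the unlisted-in-some rows the zinc carrier Slc39a8 was blank, 0.394, 8.98 and 8.24 RPKM, the fatty acid carrier Slc27a2 was blank in the Hey1 line and 5.52 and 4.36 RPKM in the Hey2 line, and the monocarboxylate carrier Slc16a8 was 0.980 and 1.34 RPKM in the Hey1 line and blank in the Hey2 line. These 76 rows enter none of the comparisons.

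The promoters of 3 carriers on which the results turn are shown to give the sequence context of genes that differed between the lines in opposite directions. Slc25a4 was the most abundant carrier and was lower in the Hey2 line, while Slc2a1 and Slc20a1 were higher there. Each run is the RefSeq promoter, 250 bases before to 50 after the start, in build GRCm38.p6, printed 5′ to 3′ on the gene's own strand, and capitals mark CACGTG and TATAA. The first is chr8:46211013-46211312 on the minus strand, the second chr4:119108495-119108794 on the plus strand, and the third chr2:129198523-129198822 on the plus strand.
Slc25a4: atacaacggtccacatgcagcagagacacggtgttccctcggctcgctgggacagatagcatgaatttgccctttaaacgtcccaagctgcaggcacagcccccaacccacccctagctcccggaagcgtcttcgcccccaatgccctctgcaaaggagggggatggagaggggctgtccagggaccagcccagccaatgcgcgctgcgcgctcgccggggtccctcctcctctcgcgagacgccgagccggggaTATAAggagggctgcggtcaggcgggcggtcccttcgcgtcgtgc
Slc2a1: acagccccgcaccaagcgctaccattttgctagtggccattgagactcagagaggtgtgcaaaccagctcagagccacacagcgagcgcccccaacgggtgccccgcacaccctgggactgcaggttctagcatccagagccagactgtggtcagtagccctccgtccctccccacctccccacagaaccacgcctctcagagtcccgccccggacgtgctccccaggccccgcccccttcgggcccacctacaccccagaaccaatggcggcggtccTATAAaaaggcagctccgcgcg
Slc20a1: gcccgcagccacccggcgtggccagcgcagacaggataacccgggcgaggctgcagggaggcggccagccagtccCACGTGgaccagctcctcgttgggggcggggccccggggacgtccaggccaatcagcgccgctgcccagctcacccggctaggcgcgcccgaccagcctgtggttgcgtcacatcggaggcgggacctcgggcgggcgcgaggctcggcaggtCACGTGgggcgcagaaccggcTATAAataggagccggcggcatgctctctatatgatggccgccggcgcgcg
The motifs CACGTG and CACGCG are letters that Hey proteins are known to bind, and TATAA is the core of the TATA box, each searched on both strands. Only the Slc20a1 promoter held CACGTG, at 2 places, and each of the 3 held 1 TATAA. A second annotated start of Slc20a1 held none of the 3 motifs. Over 186 promoters of 137 carriers with an entry, 12.4% held CACGTG, 19.4% CACGCG and 12.4% TATAA. Of all 32851 annotated promoters 7.15%, 9.27% and 24.9% held them. The latter include promoters of genes without 4 values here, while each carrier had 4 values. Promoters of the 11679 genes with 4 values were not counted, so these shares show no enrichment in carriers. The 32 promoters of 19 carriers that exceeded 2-fold upward in the Hey2 line in both comparisons of lines held CACGTG in 12.5% and CACGCG in 15.6%. Of the 23 promoters of 16 carriers past 2-fold downward there, 0 held CACGTG and 1 held CACGCG. These matches are letters in a window and show no binding.

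The first question was how the 2 lines differ in their carriers without induction. Differences are of log2(RPKM + 1), Hey2 line minus Hey1 line, which understates the change of low genes, and each fold is 1 RPKM value over the other, followed by its exact 95% interval, which covers counting error only. Between the uninduced libraries 26 carriers (14.9%) exceeded the Hey1 line by 2-fold or more in the Hey2 line on the log2(RPKM + 1) scale, where 18.6% of all 11679 genes with 4 values were, and 20 (11.5%) were at least 2-fold lower, where 12.4% of all genes were. Between the induced libraries the counts were 27 higher (15.5%) and 21 lower (12.1%), beside 21.5% and 11.7% of all genes. In both comparisons together, which use different libraries of the same lines, 23 carriers were higher and 19 lower, or 13.2% and 10.9% beside 16.5% and 10.3% of all genes. On this scaling the shares of carriers lay near or below those of all genes. No carrier passed 2-fold in an induction. A carrier past 2-fold in both comparisons must therefore have all values of a line on the same side of the other line's. This order follows from the choice of genes and is no added support where it is given below.

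The balance of these counts depended on how the libraries were scaled. Median ratio scaling moved the median difference of all genes from 0.17 to 0.01 without induction and from 0.23 to 0.00 with it, and under it 21 carriers (12.1%) were higher and 30 (17.2%) lower without induction, beside 13.97% and 15.2% of all genes. With induction 21 (12.1%) were higher and 29 (16.7%) lower, beside 15.001% and 16.2%. On the lower side the carriers' shares thus lay near those of all genes, slightly above them in both comparisons. The carriers' own median went from 0.07 to -0.08 and from 0.11 to -0.10. Class differences are therefore given beside the median of all genes. The amino acid class had a median of -0.31 without induction and -0.13 with it, the glucose class 0.51 and 0.72, the mitochondrial class -0.02 and 0.18, the ion class -0.03 and 0.09, and the class of other substrates 0.15 and 0.11. These medians depended on which genes were counted. With the 2 peptide carriers added, the amino acid median was 0.03 and 0.06, with Slc7a6os added it was -0.14 and -0.03, and over the 12 genes whose mean level reached 5 RPKM it was -0.77 and -0.52. The mitochondrial median was -0.51 and -0.64 over the 15 genes at that level, and -0.19 and -0.03 under median ratio scaling. The ion median was -0.26 and -0.27 over the 19 genes at that level, and -0.13 and -0.11 under median ratio scaling. The sign of each of these 3 class medians thus turned under at least 1 choice of genes or scaling.

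**Figure D1:**
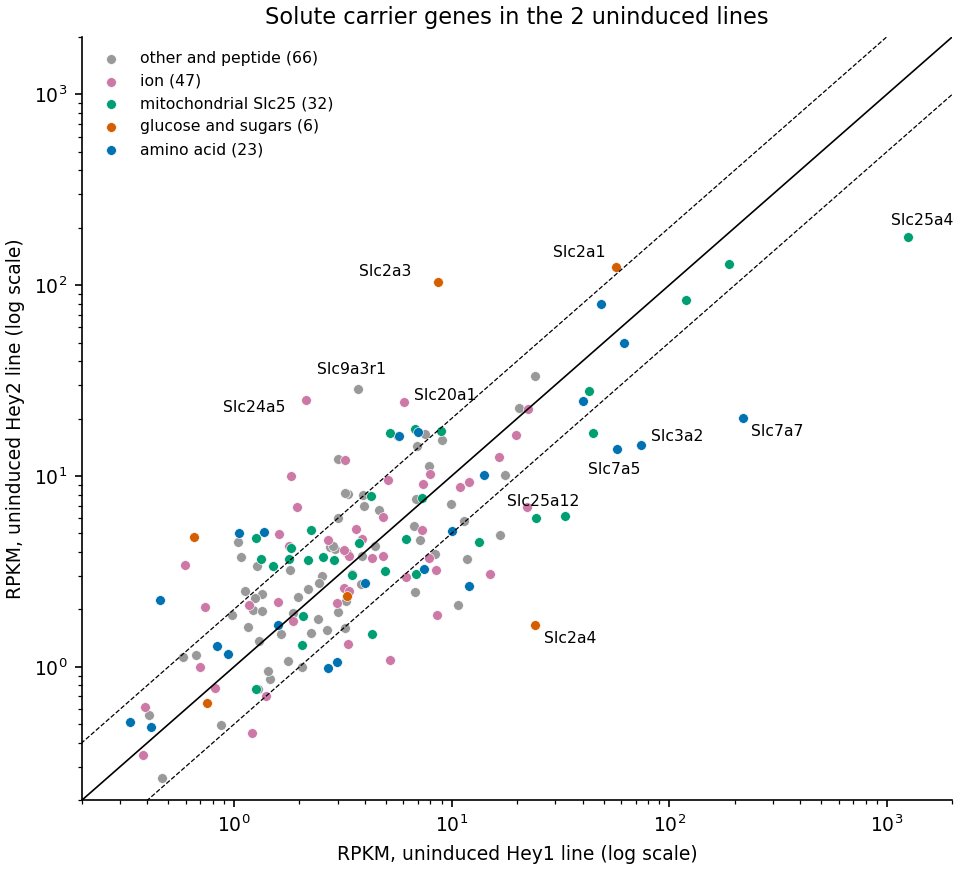
RPKM of the 174 solute carrier genes in the uninduced Hey1-line library (horizontal, log scale) against the uninduced Hey2-line library (vertical, log scale), 1 point per gene coloured by class. The solid line marks equal levels and the dashed lines a 2-fold ratio of RPKM. Slc2a3 lies far above the lines and Slc2a4, Slc7a7 and Slc25a4 far below.

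**Figure D2:**
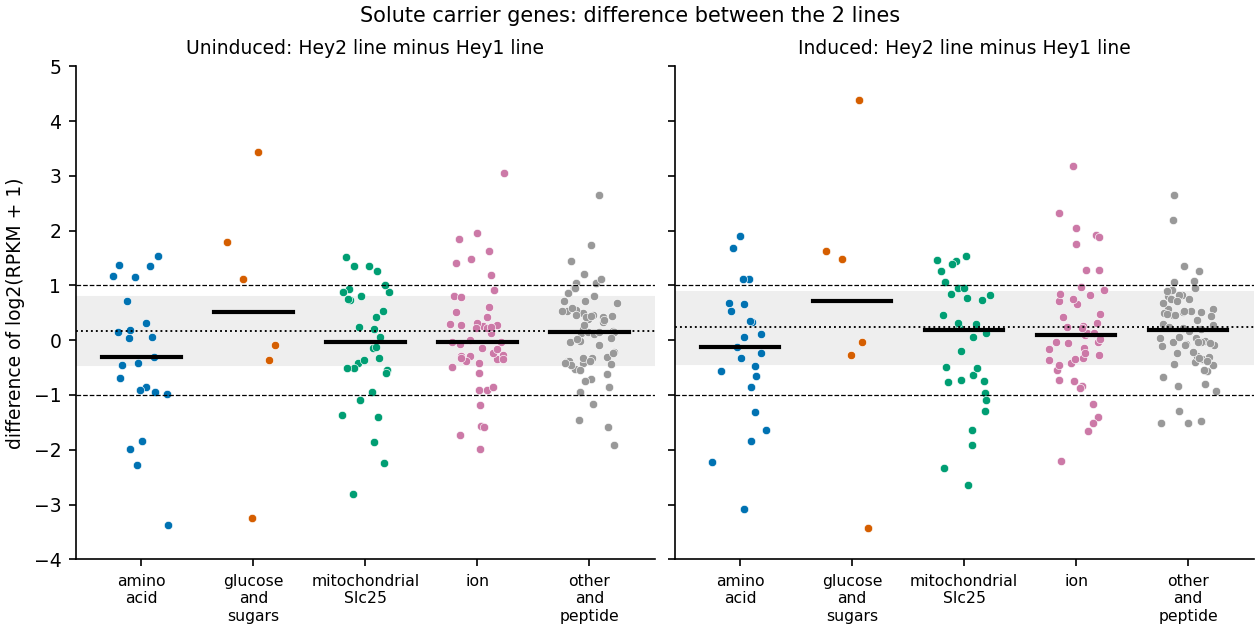
Difference of log2(RPKM + 1) between the lines for each solute carrier gene (points) by class, without induction (left) and with it (right), 1 library per group. Thick bars are class medians, the dotted line and grey band the median and middle quartiles of all 11679 genes, and dashed lines 2-fold. The 2 peptide carriers are plotted with the other substrates. Each of the 5 groups plotted holds genes on both sides of 0, and the 6 glucose genes span from -3.25 to 3.43 without induction.

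Mitochondrial carriers made up the largest part of carrier RNA in every library, with a larger share in the Hey1 line. Their summed level was 1801, 1779, 594 and 591 RPKM, or 59.5%, 61.4%, 34.3% and 33.4% of the summed level of all 174 genes. Most of that gap was 1 gene. The ADP/ATP carrier Slc25a4, which exchanges mitochondrial ATP for cytosolic ADP, stood at 1245, 1240, 178 and 197 RPKM. It held 41.1%, 42.8%, 10.2% and 11.1% of the carriers' summed level and ranked 11, 10, 58 and 47 among all genes. Its level was 7.004-fold lower in the Hey2 line without induction (95% interval 6.59 to 7.46) and 6.30-fold lower with it (6.02 to 6.60), and the 2 libraries of a line lay close together. Without Slc25a4 the other 31 mitochondrial genes summed to 556, 539, 417 and 395 RPKM. All 174 carriers summed to 3027, 2898, 1735 and 1772 RPKM with it, and the 173 others to 1782, 1659, 1557 and 1576 RPKM without it.

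**Figure D3:**
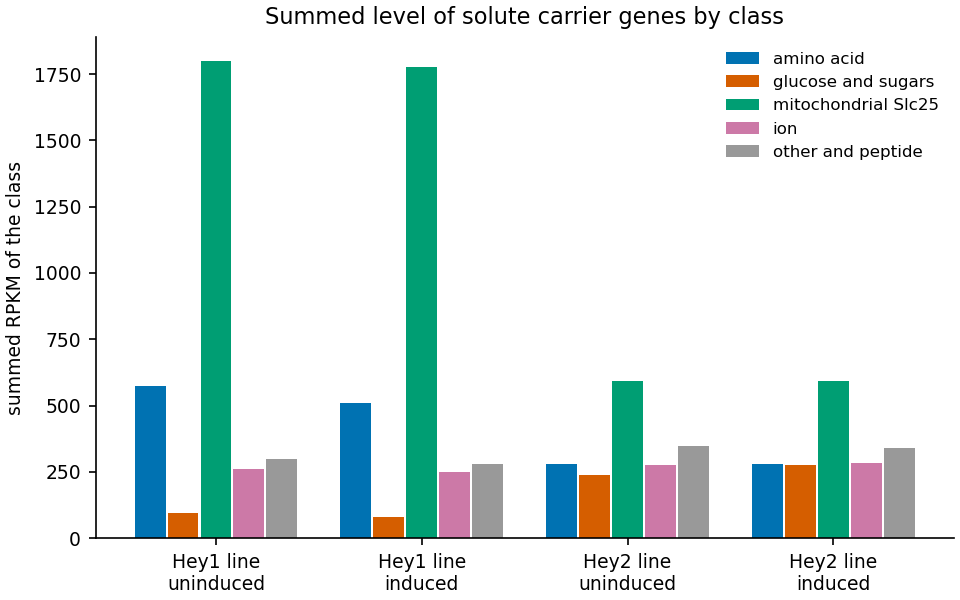
Summed RPKM of the solute carrier genes of each class (bars from 0) in each of the 4 libraries, with the 2 peptide carriers added to the other substrates. The mitochondrial bars stand at 1801 and 1779 RPKM in the Hey1 line and at 594 and 591 RPKM in the Hey2 line, and the glucose bars at 94.5 and 78.6 and at 237 and 276 RPKM.

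In both comparisons the Hey2 line had 6 mitochondrial carriers (18.8%) lower and 4 (12.5%) higher by 2-fold or more, beside 10.3% and 16.5% of all genes. With median ratio scaling 7 were lower and 3 higher, beside 13.2% and 11.8% of all genes. Slc25a12, the aspartate/glutamate carrier of the malate-aspartate shuttle, stood at 24.4, 23.8, 6.01 and 5.604 RPKM and was 4.06-fold lower without induction (3.28 to 5.08). Slc25a11, the oxoglutarate/malate carrier of the same shuttle, stood at 44.7, 38.1, 16.8 and 11.6 RPKM and was 2.66-fold lower (2.25 to 3.16). Both Hey1-line values exceeded both Hey2-line values for each, as the choice of genes requires. The gene span of Slc25a11 overlaps Rnf167, which stood at 14.6, 17.1, 15.6 and 15.4 RPKM. Slc25a20, the acylcarnitine carrier that brings fatty acids to oxidation, stood at 13.4, 12.3, 4.49 and 4.43 RPKM and was 2.99-fold lower (2.15 to 4.23). Slc25a23, a calcium-regulated carrier of ATP-Mg and phosphate, stood at 33.2, 39.02, 6.21 and 6.91 RPKM and was 5.34-fold lower (4.41 to 6.52). Slc25a42, a coenzyme A carrier, stood at 4.30, 4.79, 1.48 and 1.70 RPKM. By the same choice, both Hey1-line libraries lay above both Hey2-line libraries in each of these genes.

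Higher in the Hey2 line were 4 genes of the mitochondrial class, none above 21 RPKM in any library. Slc25a1, the citrate carrier that supplies cytosolic acetyl groups for lipid synthesis, stood at 6.76, 6.52, 17.6 and 20.9 RPKM and was 2.60-fold higher without induction (1.78 to 3.86). Slc25a36, a carrier of pyrimidine nucleotides, stood at 5.21, 5.27, 16.8 and 16.3 RPKM and was 3.22-fold higher (2.59 to 4.02). Slc25a17, a member of the family that resides in peroxisomes, stood at 5.67, 5.44, 16.2 and 14.4 RPKM. Slc25a40, linked to mitochondrial glutathione, stood at 1.26, 1.15, 4.75 and 4.65 RPKM, on 12 to 67 reads. All 4 kept the Hey1-line libraries below the Hey2-line libraries, which their choice past 2-fold in both comparisons requires. Slc25a13, the second aspartate/glutamate carrier, stood at 8.93, 8.23, 17.3 and 16.9 RPKM and missed 2-fold on the log2(RPKM + 1) scale with 0.88 and 0.96. Slc25a46, an outer membrane protein of mitochondrial shape, stood at 4.27, 4.09, 7.84 and 7.70 RPKM.

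The abundant carriers used by most cells differed less. Slc25a3, the mitochondrial phosphate carrier, stood at 188, 181, 129 and 116 RPKM and was 1.46-fold lower in the uninduced Hey2 line (1.36 to 1.57). Slc25a5, the ADP/ATP carrier of growing cells, stood at 119, 111, 83.2 and 78.8 RPKM and was 1.43-fold lower (1.29 to 1.58). Slc25a39, a carrier tied to glutathione, stood at 42.8, 46.05, 27.8 and 27.5 RPKM. The iron carriers Slc25a28 and Slc25a37 stood at 7.31, 6.61, 7.71 and 8.42 RPKM and at 2.56, 2.50, 3.76 and 4.79 RPKM.

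Other mitochondrial transport genes from a fixed list of 21 outside the Slc names had 13 members with 4 values. By 2-fold or more, 2 were higher and 3 lower in the Hey2 line, both without and with induction. Of all genes 18.6% were higher and 12.4% lower without induction, and 21.5% and 11.7% with it. The medians of the list were -0.59 and -0.46, beside 0.17 and 0.23 for all genes. Brp44, an older symbol for a subunit of the mitochondrial pyruvate carrier, stood at 52.4, 40.3, 8.35 and 7.56 RPKM, and its partner Brp44l at 26.1, 24.99, 4.602 and 5.21 RPKM. The mitochondrial serine carrier Sfxn1 ran the other way at 2.89, 2.42, 19.7 and 16.5 RPKM. The outer membrane channel Vdac1 stood at 217, 177, 130 and 133 RPKM.

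Glucose carriers showed the widest spread of any class between the lines. Slc2a3, a high-affinity carrier typical of neurons and early embryonic cells, stood at 8.67, 5.73, 103 and 139 RPKM. It was 11.9-fold higher in the Hey2 line without induction (10.48 to 13.6) and 24.3-fold higher with it (20.9 to 28.5). Slc2a1, the carrier of basal glucose uptake in most cells, stood at 56.8, 45.3, 124 and 128 RPKM and exceeded the Hey1 line 2.18-fold (2.02 to 2.35) without induction and 2.83-fold (2.63 to 3.06) with it. Slc2a4, the insulin-responsive carrier of muscle and fat, stood at 24.3, 23.5, 1.66 and 1.26 RPKM and was lower in the Hey2 line, 14.6-fold (9.91 to 22.4) and 18.6-fold (13.3 to 26.7). For all 3 genes the 2 libraries of the Hey1 line lay on the same side of both Hey2-line libraries. Passing 2-fold in both comparisons requires this.

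The remaining glucose class genes were scarce. Slc5a10, a sodium-coupled sugar carrier of the kidney, stood at 0.657, 0.708, 4.77 and 4.31 RPKM on 11 to 101 reads, and its gene span overlaps Fam83g. Slc2a8, an intracellular member of the family, stood at 3.31, 2.56, 2.34 and 1.94 RPKM, and Slc2a12 at 0.754, 0.815, 0.647 and 0.769 RPKM. The glucose class rested on 6 genes. By 2-fold or more in both comparisons 3 were higher and 1 lower, beside 16.5% and 10.3% of all genes. With median ratio scaling Slc2a1 differed by 0.89 without induction, which left 2 higher. Its summed level was 94.5, 78.6, 237 and 276 RPKM, or 3.12%, 2.71%, 13.6% and 15.6% of the carriers' sum.

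A fixed list of 17 genes for glucose handling outside the Slc names had 14 members with 4 values. It mixes enzymes that use glucose with genes of insulin signalling and of uptake control, such as Insr, Irs1, Tbc1d4 and Txnip. Most of the 14 lay the other way from Slc2a1 and Slc2a3. By 2-fold or more, 0 were higher and 5 lower in the Hey2 line without induction, beside 18.6% and 12.4% of all genes. With induction 1 was higher and 4 lower, beside 21.5% and 11.7% of all genes. The medians of the list were -0.72 and -0.42. The muscle glycogen phosphorylase Pygm stood at 95.3, 108, 6.48 and 7.49 RPKM, the other phosphorylase Pygb at 96.5, 87.9, 15.7 and 15.997 RPKM, and the glycogen synthase Gys1 at 28.2, 28.5, 4.68 and 5.11 RPKM. The hexokinase Hk1 stood at 38.8, 41.9, 8.64 and 9.92 RPKM and the hexokinase Hk2 at 23.8, 19.2, 14.04 and 17.1 RPKM. The regulator Txnip, which limits glucose uptake, was at 48.4, 48.4, 48.2 and 52.5 RPKM in the 4 libraries.

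The amino acid class had 4 genes (17.4%) higher and 4 (17.4%) lower by 2-fold or more in the Hey2 line in both comparisons, beside 16.5% and 10.3% of all genes, among them chains of heterodimers. Under median ratio scaling 2 were higher and 6 lower, beside 11.8% and 13.2% of all genes. Slc7a3 (0.86 between the induced lines) and Slc7a6 (0.97 and 0.84) then missed 2-fold, and Slc7a1 (-1.16 and -1.10) and the glycine carrier Slc6a9 (-1.08 and -1.53) passed it. The heavy chain Slc3a2, which brings light chains to the cell surface, stood at 73.9, 75.4, 14.5 and 15.4 RPKM and was 5.11-fold lower in the uninduced Hey2 line (4.51 to 5.82). Its light chain Slc7a5, which imports large neutral amino acids, stood at 57.8, 54.6, 13.9 and 14.6 RPKM and was 4.15-fold lower (3.65 to 4.73). Slc7a7, a light chain that exports cationic amino acids, stood at 218, 175, 20.2 and 19.7 RPKM and was 10.8-fold lower (9.56 to 12.2). All 3 passed 2-fold in both comparisons, so their separation by line is no added support. Slc7a7 overlaps Oxa1l, which stood at 37.2, 31.7, 14.6 and 12.9 RPKM, so reads of the 2 genes may be shared. The light chain Slc7a6, close to Slc7a7 in substrate, ran the other way at 6.99, 7.22, 16.97 and 16.8 RPKM and was 2.43-fold higher (2.03 to 2.91).

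The heavy chain Slc3a1 of the kidney and gut stood at 12.1, 9.95, 2.64 and 2.51 RPKM and was 4.57-fold lower (3.18 to 6.75). It overlaps Prepl, which stood at 12.1, 8.99, 5.49 and 5.48 RPKM. Among the cationic amino acid carriers, Slc7a1 stood at 7.45, 6.98, 3.27 and 3.44 RPKM and Slc7a3 at 5.76, 4.67, 16.3 and 11.3 RPKM. Slc7a3 was thus high in the Hey2 line and Slc7a1 low there. Slc7a3 overlaps Snx12. The light chain Slc7a8 was scarce at 0.335, 0.331, 0.517 and 0.693 RPKM on 10 to 29 reads, and the cystine carrier Slc7a11 stood at 1.60, 1.98, 1.66 and 2.11 RPKM.

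Family Slc1, the glutamate and neutral amino acid carriers, had 3 of 4 members higher in the Hey2 line. Of all genes 57.4% were higher there without induction and 59.4% with it, so 3 of 4 is no trait of the family. Slc1a1, a neuronal and epithelial glutamate carrier, was the most abundant at 48.4, 48.6, 79.6 and 78.6 RPKM and was 1.65-fold higher in the uninduced Hey2 line (1.53 to 1.77). Slc1a3, the glial glutamate carrier, stood at 1.06, 0.983, 5.003 and 5.36 RPKM, and the glutamine carrier Slc1a5 at 1.37, 0.919, 5.11 and 6.15 RPKM. Slc1a4, a carrier of alanine and serine, ran the other way at 10.1, 8.49, 5.14 and 5.84 RPKM. Of the 4 sodium-coupled neutral amino acid carriers of family Slc38, 3 differed by less than 2-fold. The scarce Slc38a6 stood at 0.457, 0.901, 2.23 and 1.99 RPKM, on 10 to 61 reads, and was 4.89-fold higher in the uninduced Hey2 line (2.39 to 11.01) and 2.20-fold higher in the induced one (1.31 to 3.86). Its gene span overlaps Trmt5. Slc38a2 stood at 61.8, 53.6, 49.6 and 48.8 RPKM, Slc38a1 at 14.2, 14.1, 10.1 and 9.22 RPKM, and Slc38a4 at 40.3, 34.01, 24.6 and 28.7 RPKM. All 23 amino acid carriers together summed to 573, 510, 279 and 279 RPKM, and to 355, 335, 259 and 259 RPKM without Slc7a7.

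Genes of the amino acid response, the program run by Atf4 when amino acids are short, came from a fixed list of 16, of which 15 had 4 values. By 2-fold or more, 0 of the 15 were higher in the Hey2 line, and 9 without induction and 10 with it were lower. Of all genes 18.6% and 21.5% were higher, and 12.4% and 11.7% lower. The medians of the list were -1.17 and -1.24. Below 0 were 14 of 15 in both comparisons, beside 42.6% and 40.6% of all genes. Under median ratio scaling it was also 14 of 15, beside 49.8% and 50.0%. Under upper quartile scaling it was again 14 of 15, beside 48.8% and 47.9%. The regulator Atf4 stood at 72.3, 85.1, 20.3 and 17.9 RPKM, the related Atf5 at 40.8, 52.6, 2.36 and 2.47 RPKM, and the target Trib3 at 10.1, 8.71, 0.933 and 0.658 RPKM. The serine synthesis enzyme Psat1 was the exception at 17.3, 16.3, 26.9 and 28.7 RPKM. The relation of this list to the carriers was not tested.

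Ion carriers held genes of both directions at similar numbers. In both comparisons 7 of 47 (14.9%) were higher in the Hey2 line by 2-fold or more and 5 (10.6%) were lower, beside 16.5% and 10.3% of all genes, and the class summed to 260, 250, 277 and 285 RPKM. Slc24a5, a sodium, calcium and potassium exchanger known from pigment cells, stood at 2.15, 1.85, 25.1 and 24.7 RPKM and was 11.7-fold higher in the uninduced Hey2 line (8.06 to 17.6). It overlaps Myef2, which stood at 3.33, 3.14, 23.6 and 20.8 RPKM, and their reads cannot be told apart here. Slc20a1, the phosphate carrier whose promoter is printed above, stood at 6.04, 4.58, 24.4 and 26.9 RPKM and was 4.04-fold higher (3.42 to 4.79), while its paralogue Slc20a2 stood at 19.8, 23.1, 16.4 and 16.9 RPKM. Slc39a10, a zinc importer, stood at 3.24, 2.58, 12.1 and 12.6 RPKM and Slc4a4, a sodium bicarbonate cotransporter, at 1.84, 1.53, 10.03 and 8.41 RPKM. These genes, apart from Slc20a2, passed 2-fold in both comparisons, so the libraries of each line stood together by choice.

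Other ion carriers higher in the Hey2 line were scarce in the Hey1 line. The sodium, potassium and chloride importer Slc12a2 stood at 1.62, 1.37, 4.99 and 4.77 RPKM, and the sodium/proton exchanger Slc9a5 at 0.595, 0.332, 3.43 and 3.49 RPKM. Slc9a5 rested on 13 to 23 reads in the Hey1 line, and its gene span overlaps Plekhg4. The zinc exporter Slc30a5 stood at 5.10, 5.24, 9.52 and 8.91 RPKM, a difference under 2-fold.

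The ion carriers lower in the Hey2 line included exchangers of chloride and bicarbonate. Slc4a3, the anion exchanger found in heart, stood at 8.55, 8.11, 1.88 and 2.19 RPKM and was 4.55-fold lower without induction (3.34 to 6.31). Slc4a2, the widespread anion exchanger, stood at 8.50, 7.18, 3.20 and 2.63 RPKM, and the potassium and chloride exporter Slc12a4 at 22.2, 23.6, 6.87 and 8.32 RPKM. The zinc carrier Slc39a13 stood at 14.98, 17.2, 3.06 and 2.97 RPKM and was 4.90-fold lower (3.50 to 7.02). Each of these had both Hey1-line libraries above both Hey2-line libraries, as their choice past 2-fold in both comparisons requires. Slc24a2, a calcium exchanger, stood at 5.23, 5.34, 1.08 and 1.02 RPKM, and the zinc carrier Slc39a6 at 7.87, 7.32, 3.72 and 3.67 RPKM. The 22 metal ion carriers had medians of 0.06 and 0.18 and the 25 other ion carriers of -0.04 and -0.06, beside 0.17 and 0.23 for all genes.

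A fixed list of 23 ion pump genes outside the Slc names had 20 with 4 values. Without induction 2 were at least 2-fold higher and 4 lower, beside 18.6% and 12.4% of all genes. With it 2 were higher and 5 lower, beside 21.5% and 11.7% of all genes. The calcium pump of the sarcoplasmic reticulum, Atp2a2, stood at 667, 617, 98.8 and 104.8 RPKM, and the sodium pump subunit Atp1b1 at 253, 228, 77.8 and 87.5 RPKM. The third beta subunit of the sodium pump, Atp1b3, stood at 14.3, 16.4, 33.9 and 30.97 RPKM. Of 9 fixed genes for helper proteins of carriers, 7 had 4 values, with 1 higher and 2 lower by 2-fold in each comparison of lines. The shares of all genes given for the ion pumps apply here too. Bsg and Emb, which escort the monocarboxylate carriers to the cell surface, stood at 166, 158, 76.7 and 75.6 RPKM and at 9.38, 6.76, 58.6 and 48.7 RPKM, in opposite directions between the lines.

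Of 64 carriers of other substrates, 4 (6.25%) were higher and 3 (4.69%) lower by 2-fold or more in both comparisons, beside 16.5% and 10.3% of all genes. Slc44a1, a choline carrier, stood at 3.01, 2.52, 12.3 and 15.1 RPKM and was 4.09-fold higher without induction (3.13 to 5.40). The nucleoside carrier Slc29a1 stood at 3.34, 2.99, 8.004 and 8.62 RPKM. Slc9a3r1, a scaffold protein that anchors membrane carriers in epithelia, stood at 3.73, 3.54, 28.6 and 27.5 RPKM and was 7.67-fold higher (5.72 to 10.47). Slc7a6os stood at 6.91, 7.34, 14.4 and 14.6 RPKM and the sialic acid nucleotide carrier Slc35a1 at 3.25, 3.99, 8.19 and 7.80 RPKM. These genes were chosen by their differences between the lines and were higher in both libraries of the Hey2 line.

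Lower in the Hey2 line were the organic cation exporter Slc47a1 at 10.7, 7.85, 2.11 and 2.20 RPKM, the nucleoside carrier Slc28a1 at 11.8, 14.7, 3.67 and 4.50 RPKM, and Slc22a17, a receptor for an iron-binding protein, at 16.7, 17.3, 4.93 and 5.46 RPKM. The creatine carrier Slc6a8 stood at 11.4, 11.3, 5.82 and 5.86 RPKM, and Slc35b2, which carries the sulfate donor into the Golgi, at 8.41, 7.11, 3.90 and 4.10 RPKM. The lactate and pyruvate carrier Slc16a1 stood at 24.3, 17.5, 33.5 and 31.3 RPKM. The 2 peptide carriers were both higher in the Hey2 line, as were 57.4% of all genes without induction and 59.4% with it. Slc15a2 stood at 1.08, 1.19, 3.79 and 3.61 RPKM.

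Ratios of 2 carriers within a library are free of library scaling, and 14 pairs were computed from RPKM, most of them paralogues of like substrate. In 5 pairs the more abundant member changed between the lines. The ratio of Slc25a12 to Slc25a13 was 2.73, 2.89, 0.347 and 0.331, and that of Slc25a20 to Slc25a1, which carry different substrates (acylcarnitine and citrate), was 1.98, 1.89, 0.255 and 0.212. The ratio of Slc7a3 to Slc7a1 was 0.772, 0.668, 4.98 and 3.2999, that of Slc20a1 to Slc20a2 was 0.305, 0.199, 1.49 and 1.59, and that of the fatty acid carriers Slc27a1 to Slc27a4 was 0.568, 0.705, 1.53 and 1.52. In each of these pairs the 95% intervals of the ratio stayed on one side of 1 in the Hey1 line and on the other side in the Hey2 line. The 2 carriers of a pair differ in gene length, which RPKM takes into account.

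Of the other pairs, most had the same member ahead in every library. Slc25a4 exceeded Slc25a5 by 10.46-fold, 11.1-fold, 2.14-fold and 2.50-fold. Slc2a1 exceeded Slc2a4 by 2.34-fold, 1.93-fold, 74.3-fold and 102-fold, with an interval of 73.6 to 145 for the last. The ratio of Slc12a2 to the chloride exporter Slc12a7 was 0.148, 0.132, 0.570 and 0.594, and that of Slc29a1 to its paralogue Slc29a2 was 1.36, 1.39, 2.92 and 4.17. The ratio of Slc2a3 to Slc2a1 was 0.153, 0.126, 0.836 and 1.09, so Slc2a3 passed Slc2a1 in the induced Hey2-line library. The ratio of Slc38a1 to Slc38a2 was 0.229, 0.264, 0.203 and 0.189, close across the libraries. The ratio of Slc25a28 to Slc25a37 was 2.85, 2.64, 2.05 and 1.76, and that of Slc7a5 to Slc7a8 was 172, 165, 26.9 and 21.1, the latter on few Slc7a8 reads. Slc1a3 and Slc1a5 had ratios of 0.773, 1.07, 0.980 and 0.872, each with an interval that spans 1.

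**Figure D4:**
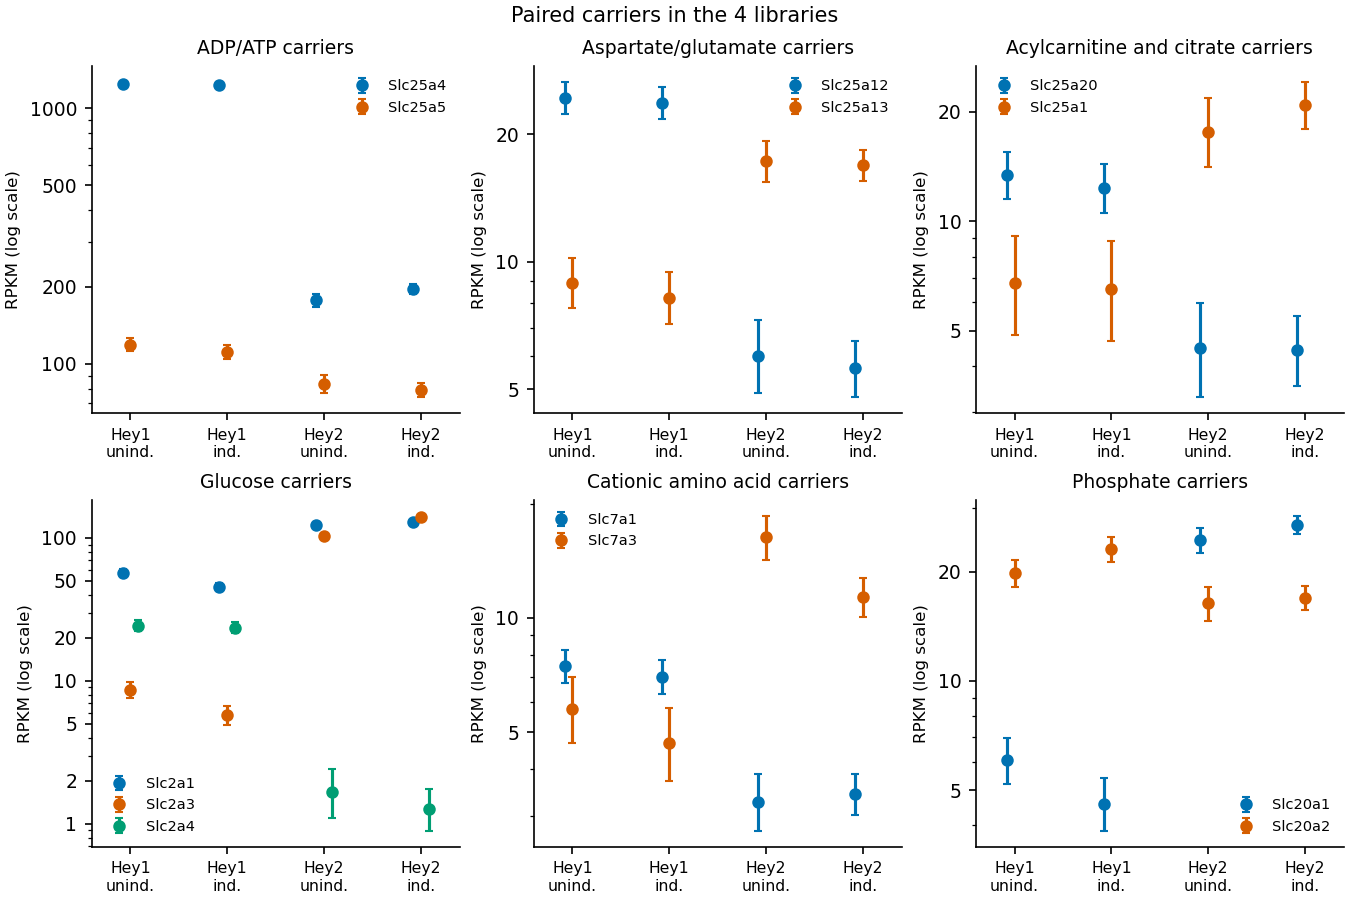
RPKM (log scale) of paired carriers in the 4 libraries, with exact 95% Poisson intervals of the reads as bars (counting error only, 1 library per point). The order of the 2 genes is reversed between the lines for the aspartate/glutamate, acylcarnitine and citrate, cationic amino acid and phosphate carriers, and of the 3 glucose carriers shown Slc2a3 is the lowest in the Hey1 line and Slc2a4 in the Hey2 line.

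The second question was how the carriers differed between the induced and the uninduced library of each line. No carrier passed 2-fold on the log2(RPKM + 1) scale in either induction, where 0.0257% of all genes were at least 2-fold higher and 0.103% lower with Hey1 and 0.00856% higher and 0.0342% lower with Hey2. At a smaller size of 0.32 on the log2(RPKM + 1) scale, 9 carriers (5.17%) were higher and 21 (12.1%) lower with Hey1 induction, beside 3.26% and 12.1% of all genes. With Hey2 induction 5 carriers (2.87%) were higher and 10 (5.75%) lower, beside 5.57% and 5.83%. The share of carriers on the higher side with Hey1 was above that of all genes and rested on 9 genes. It was also above under upper quartile scaling, at 5.75% beside 5.40%. It was below under median ratio scaling, at 5.75% beside 6.58%, and with a pseudocount of 0.1 RPKM it was 6.32% beside 6.52%.

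Scaling also mattered for the Hey1 induction. The median difference was -0.08 for carriers and -0.06 for all genes, and 114 of 174 carriers lay below 0. Under median ratio scaling the medians became -0.01 and 0.01, 92 carriers lay below 0, and 10 carriers were higher and 13 (7.47%) lower by 0.32 or more, beside 6.58% and 8.02% of all genes. With Hey2 induction the medians were 0.00 for both, and 90 carriers lay above 0 and 84 below. By class the Hey1 induction medians were -0.08 for amino acid, -0.16 for glucose, -0.05 for mitochondrial, -0.10 for ion and -0.11 for other substrates, and the Hey2 induction medians were 0.06, -0.03, -0.02, 0.03 and 0.00.

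**Figure D5:**
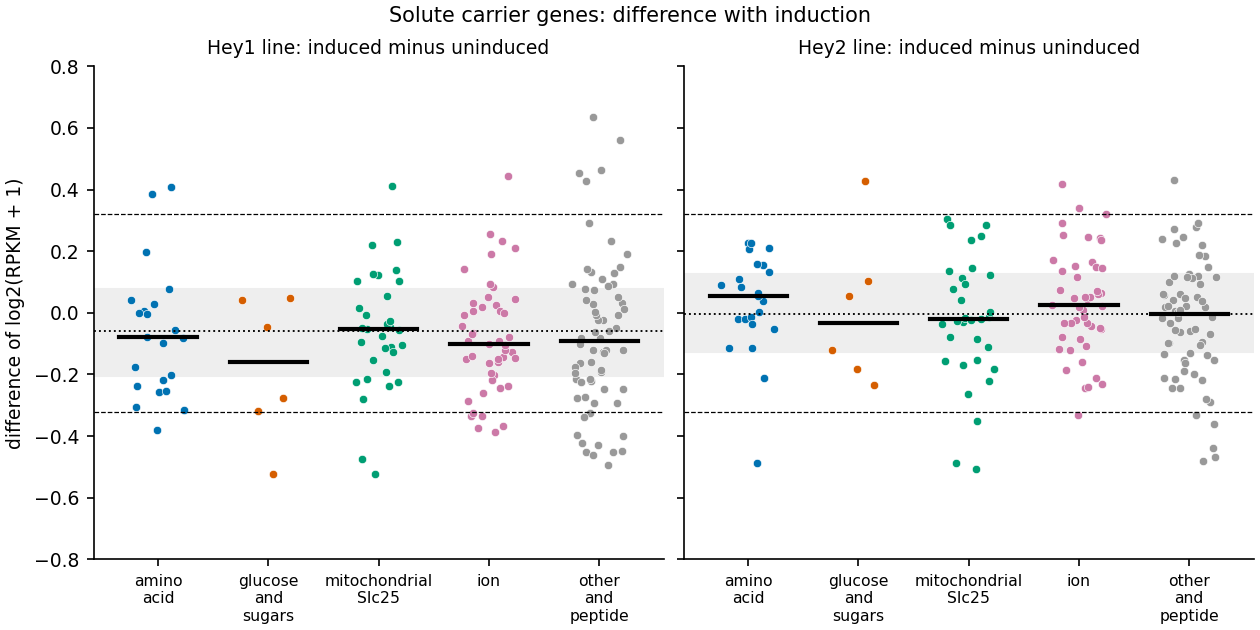
Difference of log2(RPKM + 1), induced minus uninduced, for each solute carrier gene (points) by class in the Hey1 line (left) and the Hey2 line (right), 1 library per group. Thick bars are class medians, the dotted line and grey band the median and middle quartiles of all 11679 genes, and dashed lines 0.32 and -0.32. No point reaches 1 or -1, and most points lie between the dashed lines.

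The most abundant glucose carriers differed in direction between the inductions, and Slc2a3 was past 0.32 in both. Slc2a3 went from 8.67 to 5.73 RPKM in the Hey1 line, 1.51-fold lower (1.24 to 1.85), and from 103 to 139 RPKM in the Hey2 line, 1.35-fold higher (1.28 to 1.41). Slc2a1 was 1.254-fold lower with Hey1 induction (1.15 to 1.37) and 1.04-fold higher with Hey2 induction (0.981 to 1.099). Slc2a4 was lower by 1.03-fold (0.912 to 1.17) in the Hey1 line and by 1.32-fold (0.771 to 2.22) in the Hey2 line, with 27 and 37 reads in the Hey2 line. The 14 glucose handling genes had a median of -0.12 with Hey1 induction, 10 of them below 0, and of 0.11 with Hey2 induction, 14 of them above 0, while all genes had -0.06 and 0.00. Past 0.32 on the log2(RPKM + 1) scale were 2 of the 14, both lower, with Hey1 induction, beside 12.1% of all genes, and 1, higher, with Hey2 induction, beside 5.57%. The fibroblast markers with 4 values lay below 0 in 6 of 6 with Hey1 induction and above 0 in 6 of 6 with Hey2 induction, and the listed ones (Lum was not listed in the Hey1 line) summed to 43.3, 37.4, 63.1 and 80.95 RPKM. The pluripotency markers lay below 0 in 6 of 6 with Hey1 induction and above 0 in 5 of 6 with Hey2 induction. The epithelial markers lay below 0 in 2 of 4 and above 0 in 4 of 4. The cardiomyocyte markers lay above 0 in 5 of 8 and in 7 of 8. Among all genes 61.2% lay below 0 with Hey1 and 49.2% above 0 with Hey2. The part of these markers and of the fibroblast markers in the glucose genes was not tested.

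Of the 32 mitochondrial carriers, 1 (3.125%) was higher and 2 (6.25%) lower past 0.32 with Hey1 induction, beside 3.26% and 12.1% of all genes. With Hey2 induction 0 were higher and 3 (9.375%) lower, beside 5.57% and 5.83% of all genes. Slc25a4 was 1.00-fold lower with Hey1 induction (0.977 to 1.03) and 1.11-fold higher with Hey2 induction (1.03 to 1.19). Slc25a11 was lower by 1.17-fold (1.04 to 1.32) with Hey1 and by 1.46-fold (1.19 to 1.78) with Hey2. Slc25a23 was higher by 1.18-fold (1.07 to 1.29) and by 1.11-fold (0.891 to 1.397). Slc25a27, an uncoupling protein of brain, stood at 1.51, 0.744, 3.37 and 2.12 RPKM on 15 to 59 reads and differed by -0.52 and -0.49 on the log2(RPKM + 1) scale.

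Of the 23 amino acid carriers, 2 (8.70%) were higher and 1 (4.35%) lower past 0.32 with Hey1 induction, beside 3.26% and 12.1% of all genes. With Hey2 induction 0 were higher and 1 (4.35%) lower, beside 5.57% and 5.83% of all genes. Slc7a7 was 1.246-fold lower with Hey1 induction (1.19 to 1.30) and 1.03-fold lower with Hey2 induction (0.886 to 1.19), and Slc7a3 was lower by 1.23-fold (0.913 to 1.67) and by 1.44-fold (1.20 to 1.72). Slc38a4 was 1.19-fold lower (1.09 to 1.29) with Hey1 and 1.16-fold higher (1.05 to 1.29) with Hey2. Slc3a2 was 1.02-fold higher (0.956 to 1.09) and 1.07-fold higher (0.923 to 1.24).

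Of the 47 ion carriers, 1 was higher and 6 lower past 0.32 with Hey1 induction, beside 3.26% and 12.1% of all genes, and 3 were higher and 1 lower with Hey2 induction, beside 5.57% and 5.83%. The 6 lower with Hey1 became 0 under median ratio scaling and 2 under upper quartile scaling. With Hey1 induction Slc20a1 was 1.32-fold lower (1.05 to 1.65), Slc24a3 1.36-fold lower (1.09 to 1.71) and the zinc carrier Slc30a9 1.32-fold lower (1.14 to 1.53). Slc31a2, a copper carrier, was 1.45-fold higher (1.02 to 2.06) with 58 and 85 reads. With Hey2 induction Slc39a7, a zinc carrier of the secretory pathway, was 1.27-fold lower (1.11 to 1.45). The copper importer Slc31a1 stood at 7.98, 7.37, 10.2 and 12.7 RPKM and the proton exchanger Slc9a7 at 7.28, 7.83, 5.21 and 6.32 RPKM, both under this size. Slc39a11, another zinc carrier whose gene span overlaps Sstr2 and Cog1, stood at 4.86, 3.68, 6.07 and 7.84 RPKM and was 1.32-fold lower (0.976 to 1.79) with Hey1 and 1.29-fold higher (1.02 to 1.65) with Hey2. Its differences of log2(RPKM + 1), -0.33 and 0.32, lie at the smaller size.

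In both inductions together 0 carriers were higher by 0.32 or more, where 0.265% of all genes were, and 4 were lower, where 1.15% were. The 4 were Slc25a27, Slc35b1, Slc35b3 and Slc35e3. The 3 Slc35 genes belong to the family of nucleotide sugar carriers, and Slc35b1 stood at 20.3, 14.1, 22.6 and 17.4 RPKM. It was 1.44-fold lower (1.14 to 1.83) with Hey1 induction and 1.30-fold lower (1.05 to 1.61) with Hey2. Lower with Hey1 and higher with Hey2 by this size were 3 carriers, Slc2a3, Slc39a11 and the lysosomal nucleoside carrier Slc29a3 at 1.29, 0.738, 0.763 and 1.38 RPKM, beside 0.651% of all genes. Over the 174 carriers the differences in the 2 inductions, which share no library, had a Pearson r of 0.0285 and a Spearman rho of 0.0361, given as a description across genes that are not independent replicates.

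Families with most members on one side with Hey1 induction were the Slc35 nucleotide sugar carriers, with 15 of 18 below 0 and a median of -0.20, and the Slc16 monocarboxylate carriers, with 6 of 6 below 0 and a median of -0.20. Among all genes 61.2% lay below 0. Under median ratio scaling 14 of 18 and 6 of 6 stayed below 0, with medians of -0.13 and -0.15. With Hey2 induction 11 of 18 and 3 of 6 lay below 0. The zinc exporters of family Slc30 had 6 of 7 below 0 with Hey1 and 2 of 7 with Hey2. These families were chosen after their values were seen. In the Hey1 line the proliferation markers also went from 16.7 to 12.3 RPKM and the pluripotency markers from 29.1 to 22.1 RPKM with induction, and their part in the carriers' differences was not tested.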

How the data were processed

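The authors deposited a table of RPKM values with 1 column for each of the 4 RNA libraries, per the file headers, and a signed fold per line, a score that the authors computed from their RPKM. That score was used only as a check: it matched the ratio of the RPKM columns for 11917 and 14053 genes. Per the submitters' processing notes, the build was mm9 and the tools included Bowtie 1.0, MACS 1.4.1 and DESeq. Annotation, read counter, strand use and the DESeq version were not given in the sources used. Overlapping genes and near-identical copies are therefore uncertain, and 35 of the 174 carriers (20.1%) overlap another listed gene in the RefSeq table of GRCm38.p6, against 27.3% of all genes. The 8 chromatin immunoprecipitation samples were not analysed here.

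RPKM steps gave whole reads (within 3e-06 reads) for 11673 of 11679 genes with 4 values (99.9%), at divisors of 7.4, 7.5, 5.75 and 10.375 M reads. When 1 divisor was moved by 1%, the share fell to 10.3%. With 1 library per group no test across libraries was run, the p-value of a count model on the recovered reads would compare libraries only, and none is given. Differences are of log2(RPKM + 1), with a pseudocount of 1 RPKM, and counts are of genes past 2-fold or past 0.32 on that scale. Folds are RPKM ratios with exact conditional binomial 95% intervals, and intervals and listing floors cover counting error only, since PCR copies are not independent molecules. Of the members, 162 had a mean of at least 1 RPKM, 72 of at least 5 RPKM, and 92 had at least 50 reads in every library.

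The members, classes and gene lists were chosen with earlier results of these data known. Genes named are those past 2-fold in an induction (none), the 3 largest per class and direction in an induction and the 5 largest per class and direction between lines at a mean of at least 5 RPKM, the members of 14 pairs and the 10 most abundant. Some genes that this rule takes are not reported here. Others named complete a count or a family and were chosen after their values were seen. Slc7a6os was moved out of the amino acid class after the table was seen. Alternatives changed the pseudocount, the filter on low values, the scaling, the size and the classes. Calculations used Python 3.11.15 with NumPy 2.4.6, pandas 2.3.3 and SciPy 1.17.1, and plots Matplotlib 3.10.9.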

Additional observations from a re-analysis of the deposited data

Results flagged for a closer look

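In 2 carriers the induction of Hey1 and the induction of Hey2 went opposite ways by 0.32 or more in log2(RPKM + 1), among carriers whose mean level reached 5 RPKM. Without that filter 3 of 174 carriers were lower with Hey1 and higher with Hey2, beside 0.651% of all genes. The share of all genes at 5 RPKM was not counted. The difference of Slc2a3 was -0.52 with Hey1 induction and 0.43 with Hey2 induction. The difference of Slc39a11 was -0.33 and 0.32, at the edge of that size, and under median ratio scaling it was -0.26 and 0.32. With 1 library per group the difference between the inductions was not tested in either gene.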

How the results depend on the processing

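Of 188 values recomputed under the alternatives, 173 stayed within the limits set for them and 15 did not. The 15 were 12 of 64 counts, which moved by more than 1.5 times, and 3 of 124 class medians, which left the 95% interval of the median. That interval was wide for small classes, so staying within it says little. Without induction the glucose median went from 0.51 to 2.27 over 2 genes with 50 reads and counted as within. So did the amino acid median, from -0.31 to 0.03 with the peptide carriers. At a size of 1.5-fold in place of 2-fold, 1 carrier was higher with Hey1 induction in place of 0 (0.575%, all genes 0.437%). At that size 46 were higher and 36 lower in the uninduced Hey2 line (all genes 32.6% and 21.2%, carriers 26.4% and 20.7%). In the induced one 52 were higher and 36 lower (all genes 35.3% and 20.4%, carriers 29.9% and 20.7%). With a pseudocount of 0.1 RPKM, 42 carriers were higher between the induced lines in place of 27 (24.1%, all genes 27.6%), and the ion median with Hey1 induction was -0.16 in place of -0.10. Restricted to a mean of at least 5 RPKM, 16 of 72 carriers were higher between the uninduced lines (22.2%, all genes 22.9%) and 14 between the induced lines (19.4%, all genes 25.6%), while 17 were lower in each (23.6%, all genes 16.7% and 15.8%), and the ion median between the induced lines was -0.27 in place of 0.09, over 19 genes. Restricted to at least 50 reads in each library, a restriction chosen after seeing the data, the counts over 92 carriers were 15 higher and 13 lower without induction (16.3% and 14.1%, all genes 17.5% and 11.6%) and 15 higher and 12 lower with it (all genes 20.7% and 11.05%). These 2 restrictions leave fewer genes. Under median ratio scaling the mitochondrial median with Hey1 induction was 0.023 in place of -0.05. No paired analysis was possible because each group has 1 library, and none could be left out for the same reason. Depth limits genes under about 50 reads, whose intervals often span more than 2-fold.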
